A study of Rattus norvegicus with 56 samples.

Results

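H3K4me3 peaks that were called at 21 months of age on both sides of the rat brain, and on neither side at 13 months, made up 1590 of 56333 H3K4me3 regions (2.82%). The regions were built by joining overlapping peaks of the 4 H3K4me3 lists, and the set was chosen by the peak calls alone: a peak in each 21-month list and none in either 13-month list. Those calls, with the lengths and folds behind them, are a description and carry no test. The opposite pattern, with peaks in each 13-month list and no 21-month peak, was held by 214 regions (0.380%).

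All tissue came from the brains of rats with an intracerebral haemorrhage, which is bleeding inside the brain. Ipsilateral brain, on the side of the bleed, and contralateral brain were taken from untreated rats labelled 21 months old and from untreated rats labelled 13 months old, and chromatin immunoprecipitation with sequencing (ChIP-seq) mapped H3K4me3, H3K9ac and H3K27me3 in each of these 4 groups. H3K9ac and H3K27me3 were also mapped in ipsilateral brain of 21-month rats given plasma of 3-month rats or plasma of 22-month rats. Each untreated list pools 2 ChIP and 2 input libraries and each plasma list has 1 of each, so no value below has a replicate spread and no group difference could be tested. The contralateral side also belongs to injured animals and is not uninjured brain, and the sources used here do not say how long after the bleed the tissue was taken or whether the libraries of a group came from separate animals. The older rats are 21 months old in the sample labels and 22 months old in the series text, and the labels are followed here. The labels give bulk brain tissue, in which more cells carrying a mark and more of the mark per cell cannot be told apart. Genes and cell type markers were not assigned to the regions, because the coordinates could not be tied to an annotation of the same build.

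H3K4me3 is trimethylation of lysine 4 of histone H3. It is laid down mainly at gene starts, where long and strong domains mark promoters in use, and short, weak stretches occur at promoter edges and at active enhancers. H3K9ac, an acetylation of the same histone tail, accompanies transcription at promoters and enhancers. H3K27me3 is written by Polycomb repressive complexes and marks silenced genes, and promoters with both H3K4me3 and H3K27me3 are called bivalent and are best known from stem cells and from developmental genes.

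The H3K4me3 lists differed in depth and in enrichment between the ages. The 21-month lists kept 71357444 tags on the ipsilateral side and 77902707 on the contralateral side, against 86748494 ipsilateral and 91768484 contralateral at 13 months. At the 18912 regions with a peak in all 4 lists, the median fold over the local background was 10.2 ipsilateral and 14.2 contralateral at 21 months, against 8.36 ipsilateral and 8.13 contralateral at 13 months. Folds of 8 or more were reached by 12420 ipsilateral and 15064 contralateral peaks at 21 months, against 10319 ipsilateral and 10050 contralateral peaks at 13 months. Per the file headers, the reads of both lists of an age lay in a folder that the other age does not use. What a folder stands for is not stated. The untreated H3K9ac and H3K27me3 lists were split by age in the same way. Age, folder and enrichment therefore cannot be told apart, and the part of enrichment in the choice of the 1590 regions was not tested. These folds and q-values are the authors' own values for each peak, and they are used below to describe and rank.

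The regions were short and weak beside those present at both ages. Their median length was 394 bp, with quartiles at 292 and 541 bp and a range of 153 to 1700 bp. Regions in all 4 lists had a median of 1626 bp, and the 214 regions present at 13 months only had a median of 276.5 bp. Only 35 of the 1590 regions (2.20%) exceeded 1 kb, compared with 73.7% of the regions in all 4 lists. Together the 1590 regions covered 698634 bp, or 1.61% of the bases under any H3K4me3 region.

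Regions with a peak on both sides at 21 months and on 1 side at 13 months had lengths between these extremes. The 1318 with an ipsilateral 13-month peak had a median of 533 bp and the 710 with a contralateral one had 505 bp. Length thus fell in steps with the number of 13-month lists that held the region, at 1626 bp for both, 505 to 533 bp for 1 and 394 bp for none. A region spans all its joined peaks, so its length can grow with the number of lists. In the ipsilateral 21-month list alone, the median of bases covered was 1395 bp for both, 303 to 330 bp for 1 and 238 bp for none.

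**Figure D1:**
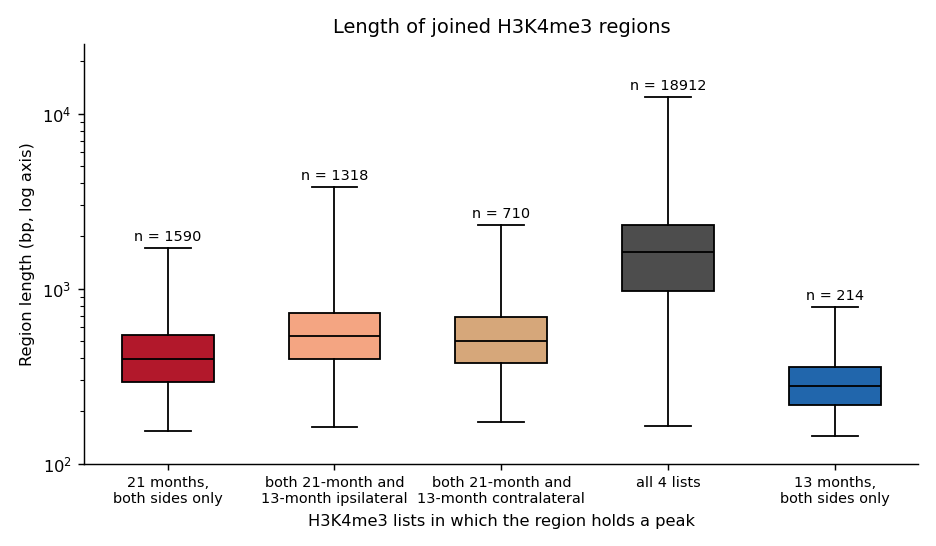
Region length (bp, log axis) of joined H3K4me3 regions by the lists in which they hold a peak. Boxes span the quartiles with a line at the median, whiskers reach the shortest and longest region, and the medians are 394 bp for the 1590 regions called at 21 months on both sides only, 1626 bp for the 18912 in all 4 lists and 276.5 bp for the 214 called at 13 months on both sides only.

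The median fold of the 1590 regions was 3.05 in ipsilateral brain (quartiles 2.57 and 3.60, range 1.24 to 17.7) and 3.52 in contralateral brain (quartiles 2.90 and 4.29, range 1.22 to 12.4). The median −log10 q-value was 5.15 in ipsilateral and 7.97 in contralateral brain. The lower of the 2 folds reached 4 in 122 regions (7.67%), compared with 87.8% of the regions in all 4 lists, and it reached 5 in 24. The contralateral fold was the higher in 1052 of the 1590 regions (66.2%), against 85.0% of the regions in all 4 lists. The peak on the contralateral side also covered more bases, with a median of 342.5 bp against 238 bp for the ipsilateral peak.

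Within the set, the folds on the 2 sides followed each other little. Spearman's rank correlation was 0.18 over the 1590 regions, compared with 0.79 over the 18912 regions in all 4 lists, as a description over regions that share their libraries. The set spans a narrower range of folds, with ipsilateral quartiles at 2.57 and 3.60, against 6.19 and 13.4 in all 4 lists. The 2 correlations are thus not on like terms, and the part of the range in the lower value was not tested. Many peaks were tied in strength, and 881 regions had an ipsilateral fold and q-value identical to those of another region of the set.

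**Figure D2:**
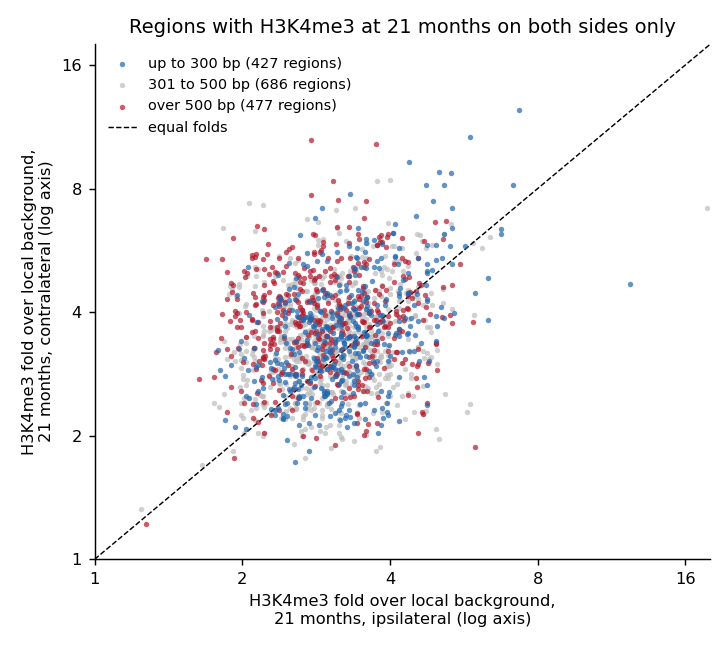
H3K4me3 fold over local background in contralateral (y axis) against ipsilateral brain (x axis) at 21 months, both log axes, with 1 point for each of the 1590 regions, coloured by length, and a dashed line at equal folds. The contralateral fold is the higher, above the line, in 1052 regions, and most of the points with both folds above 5 are regions of 300 bp or less.

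The strongest regions on assembled chromosomes were also short. Coordinates are 1-based on the build of the authors' lists, which the sources used here do not name. The 10 with the highest lower fold measured 161 to 475 bp, and 5 of them overlapped an H3K9ac peak at 21 months on at least 1 side. A 219-bp region on chromosome 20, 189119 to 189337, had folds of 7.33 in ipsilateral and 12.4 in contralateral brain. It overlapped no H3K9ac peak in any list, and its only second mark was contralateral H3K27me3 at 21 months with a fold of 3.71. The nearest region with H3K4me3 in all 4 lists lay 31289 bp away.

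The next in rank lay on chromosome 7, 10509150 to 10509356, with H3K4me3 folds of 7.14 ipsilateral and 8.15 contralateral. It overlapped H3K9ac at 21 months on the contralateral side alone, with a fold of 5.38, and was 224469 bp from a region in all 4 lists. On chromosome 11, 43571798 to 43572000, a region had folds of 6.74 and 6.38 on the ipsilateral and contralateral sides and no peak of another mark in any list. Of these 3 strongest regions, 1 thus had H3K9ac called at 21 months, on the contralateral side, and the other two had no H3K9ac call.

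On chromosome 16, the region 74748364 to 74748574 had H3K4me3 folds of 6.73 ipsilateral and 6.19 contralateral and carried ipsilateral H3K9ac at both ages, with a fold of 5.43 at 21 months against 4.51 at 13 months. A region on chromosome 18, 15630089 to 15630464, had H3K4me3 folds of 6.38 ipsilateral and 6.11 contralateral. Its H3K9ac was called at 21 months on both sides, with folds of 2.82 ipsilateral and 2.66 contralateral, and in neither 13-month list. That region was the only 1 of the 10 strongest with H3K9ac on both sides at 21 months, and its acetylation was also called after plasma of 22-month rats, with a fold of 6.55. A 161-bp region on chromosome 1, 119696814 to 119696974, lay 280 bp from a region in all 4 lists and overlapped no other mark, with H3K4me3 folds of 5.35 ipsilateral and 6.40 contralateral.

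Over all 24 regions with a lower fold of 5 or more, the median length was 215 bp and 15 measured 300 bp or less. H3K9ac was called at 21 months on at least 1 side in 13 of them (54.2%). The share was 50.4% over all H3K4me3 regions and 16.8% over those of 300 bp or less. H3K27me3 was called in 4, where the shares were 33.7% and 25.8% in the same order.

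The 5 longest regions measured 1456 to 1700 bp. All 5 overlapped an H3K9ac peak at 13 months on at least 1 side, 3 did so at 21 months, and 4 overlapped H3K27me3 at 21 months. Of all H3K4me3 regions over 500 bp, 94.2% overlapped H3K9ac at 13 months, 95.7% overlapped it at 21 months and 42.5% overlapped H3K27me3 at 21 months. Of those over 500 bp and not in all 4 lists, the shares were 71.2%, 77.1% and 52.1% in the same order. The longest, on chromosome 5, 24630115 to 24631814, had H3K4me3 folds of 2.46 ipsilateral and 5.18 contralateral. H3K27me3 covered it at both ages, with folds of 12.5 ipsilateral and 10.4 contralateral at 21 months, against 7.74 ipsilateral and 10.6 contralateral at 13 months. A 13-month H3K4me3 peak lay only 349 bp from it, so the bases missed at 13 months were next to H3K4me3 that was called.

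The longest but one, on chromosome 4, 148782472 to 148784159, had H3K4me3 folds of 3.13 ipsilateral and 4.29 contralateral. Its H3K9ac was called on the ipsilateral side at 21 months, with a fold of 3.64, and on the contralateral side at 13 months, with a fold of 4.51. A 1520-bp region on chromosome 8, 53141188 to 53142707, carried H3K9ac in all 4 untreated lists, with folds of 2.81 ipsilateral and 1.92 contralateral at 21 months, against 4.09 ipsilateral and 2.52 contralateral at 13 months. Acetylation was thus called there at the age without an H3K4me3 peak as well.

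Regions of the set lay close to H3K4me3 present at both ages more often than regions not in all 4 lists did as a whole. Of the 1582 regions with a region in all 4 lists on the same chromosome or scaffold, 389 (24.6%, 95% Wilson interval 22.5 to 26.8) lay within 1 kb of it, against 10.6% of all regions not in all 4 lists. Within 5 kb lay 556 (35.1%, interval 32.8 to 37.5), against 16.8%, and within 50 kb lay 1063 (67.2%, interval 64.8 to 69.5), against 39.2%. The intervals here and below cover counting error only and treat regions as independent, although neighbouring regions are not. The median gap was 19181 bp, with quartiles at 1135 and 73844 bp. When H3K4me3 peaks within 1 kb of each other were joined, 1171 regions kept the pattern, of which 11.2% lay within 5 kb, and the median gap was 41482.5 bp.

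The gaps of the 1590 regions resembled those of regions with a single 13-month peak. Regions with both 21-month peaks and the ipsilateral 13-month peak lay within 1 kb in 19.5% of cases, and those with the contralateral 13-month peak in 23.2%. Regions called at 13 months on both sides only were far off, with 3.27% within 1 kb and a median gap of 188086 bp. Regions called in the contralateral 21-month list alone lay between, with 18.8% within 1 kb.

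**Figure D3:**
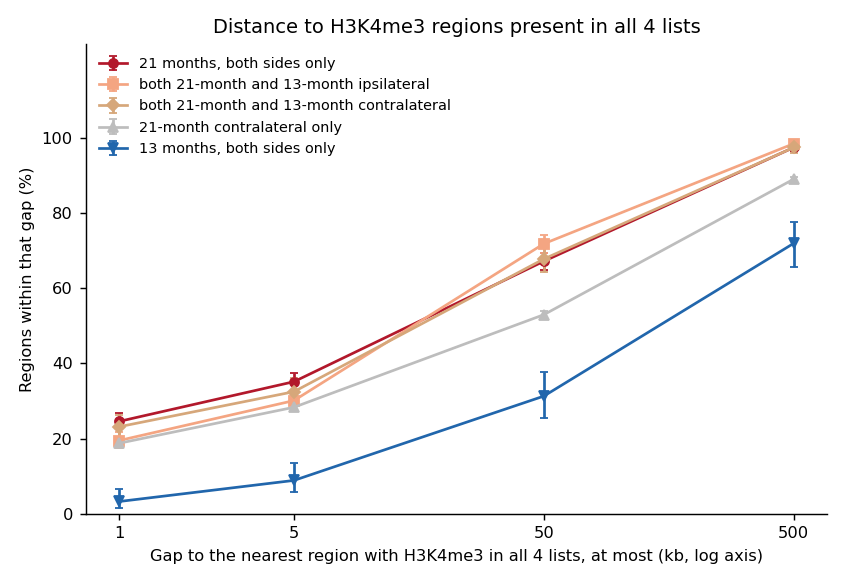
Share of regions (%) whose gap to the nearest region with H3K4me3 in all 4 lists is at most the distance on the x axis (kb, log axis), for 5 presence patterns, with 95% Wilson intervals as bars. Of the regions called at 21 months on both sides only, 24.6% lie within 1 kb and 67.2% within 50 kb, against 3.27% and 31.3% of those called at 13 months on both sides only.

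The H3K4me3 regions in all 4 lists that neighboured the set were long. There were 382 of them within 1 kb of a region of the set, with a median length of 2229.5 bp, compared with 1618 bp for the other 18530. In 76.7% of the neighbours the 21-month peaks covered more bases than the 13-month peaks on both sides, against 67.9% of the others. Their median covered length was 1989 bp ipsilateral and 2183 bp contralateral at 21 months, against 1731 bp ipsilateral and 1699 bp contralateral at 13 months. Their folds were near those of the others, with medians at 21 months of 9.96 ipsilateral and 13.7 contralateral in the neighbours and 10.2 and 14.2 in the others.

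The gap to any 13-month H3K4me3 peak, whether or not in all 4 lists, had a median of 7896 bp. It was at most 1 kb in 465 of the 1590 regions (29.2%) and at most 5 kb in 690 (43.4%). The regions just inside the rule almost touched such a peak. On chromosome 1, 74988643 to 74989112, the gap was 1 bp, with H3K4me3 folds of 2.80 ipsilateral and 3.04 contralateral. On chromosome 2, 11863928 to 11864459, the gap was 2 bp, with folds of 2.64 ipsilateral and 3.32 contralateral. On chromosome 10, 83653271 to 83653693, it was 6 bp, with folds of 4.35 ipsilateral and 2.55 contralateral.

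Just outside the rule, a region on chromosome 1, 172389252 to 172389768, shared 36 bp between its 21-month peaks and its only 13-month peak. Its folds were 3.40 ipsilateral and 4.27 contralateral at 21 months, against 3.44 contralateral at 13 months. A region on chromosome 3, 15913095 to 15913518, shared 42 bp and had folds of 3.15 ipsilateral and 3.30 contralateral at 21 months, against 3.20 ipsilateral at 13 months. The last of the 3, on chromosome 3, 52534859 to 52535329, shared 44 bp and had folds of 3.17 ipsilateral and 6.40 contralateral at 21 months, against 3.88 contralateral at 13 months. The regions on either side of the rule had folds of the same order, so a small shift of a peak edge decides membership there.

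At the other end, the 3 most remote regions lay 1588805 to 1823514 bp from any region in all 4 lists. The farthest, on chromosome 15, 64027845 to 64028197, had a gap of 1823514 bp, H3K4me3 folds of 3.37 ipsilateral and 2.72 contralateral, and no peak of another mark. The other two, on chromosome 3, 19059183 to 19059390, and chromosome 8, 41711744 to 41712001, carried no H3K9ac in any list.

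H3K9ac, which the choice of the set did not use, was called at most of these regions and at both ages. It overlapped 1126 of the 1590 regions at 21 months on at least 1 side (70.8%, interval 68.5 to 73.0), against 50.4% of all H3K4me3 regions. At 13 months, where the same regions had no H3K4me3 peak, it overlapped 920 (57.9%, interval 55.4 to 60.3), against 47.4%. All H3K4me3 regions include the 18912 in all 4 lists, which the set cannot hold. Of those 18912, 98.1% overlapped H3K9ac at 21 months and 96.9% at 13 months. By list at 21 months, H3K9ac was called in 794 of the 1590 regions (49.9%) in ipsilateral brain, against 44.8% of all regions. It was called in 945 (59.4%) in contralateral brain, against 45.2%. At 13 months it was called in 621 (39.1%) ipsilateral, against 41.1% of all regions, and in 788 (49.6%) contralateral, against 43.9%.

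On each side the share was higher at 21 than at 13 months, and at each age it was higher in contralateral than in ipsilateral brain. Depth moved the same way: the H3K9ac lists kept 66910243 ipsilateral and 99213634 contralateral tags at 21 months, against 19323327 ipsilateral and 46299770 contralateral tags at 13 months. Duplicates made up 22% of the ipsilateral and 13% of the contralateral H3K9ac ChIP tags at 21 months, against 82% and 55% at 13 months. The part of depth and of duplicates in these shares was not tested. When each H3K9ac list was cut to its 50651 peaks of lowest q-value, the share with H3K9ac on at least 1 side was 54.0% at 21 months and 45.3% at 13 months. When only H3K9ac peaks of fold 4 or more were counted, the order of the ages turned, with 28.3% at 21 months and 33.7% at 13 months.

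Combined across lists, the 2 most common H3K9ac patterns did not depend on age. All 4 untreated lists held a peak in 389 regions (24.5%), against 34.9% of all regions, and none did in 385 (24.2%), against 47.5%. Both 21-month lists held a peak in 613 (38.6%), against 39.6% of all regions, and both 13-month lists in 489 (30.8%), against 37.7%. The age pattern of H3K4me3 itself was followed by H3K9ac in 52 regions (3.27%), against 1.01% of all regions. Regions with both 21-month H3K4me3 peaks and the ipsilateral 13-month peak had this H3K9ac pattern in 2.88%, and those with the contralateral one in 3.94%. The pattern was thus about as frequent where H3K4me3 was also called at 13 months. A looser form, H3K9ac at 21 months on at least 1 side and none at 13 months, held in 285 (17.9%), against 5.17%. With both 21-month H3K4me3 peaks and the ipsilateral 13-month peak it held in 11.2%, and with the contralateral one in 14.8%. The reverse, H3K9ac at 13 months on at least 1 side and none at 21 months, held in 79 (4.97%), against 2.10%, and H3K9ac at 13 months on both sides and at 21 months on neither in 6 (0.377%), against 0.234%. Of the 1126 regions with H3K9ac at 21 months, 285 thus had none at 13 months and the others had it at both ages. The shares over all regions include the 18912 regions with H3K4me3 in all 4 lists. Of those 18912, 88.0% had H3K9ac in all 4 untreated lists and 1.36% in none.

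The 52 regions where both marks followed age included the chromosome 18 region described above. Next in rank was a 248-bp region on chromosome X, 12696528 to 12696775, with H3K4me3 folds of 4.55 ipsilateral and 5.43 contralateral and H3K9ac folds of 4.72 and 4.17 on the same sides. A region on chromosome 1, 220010474 to 220010965, lay 275 bp from a region in all 4 lists and had H3K9ac folds of 2.46 ipsilateral and 3.84 contralateral. On chromosome 17, the region 56941841 to 56942111 had H3K9ac folds of 4.01 ipsilateral and 2.27 contralateral, and a region on chromosome 7, 31268804 to 31269416, had 3.43 ipsilateral and 3.42 contralateral. Of these 5, 4 also overlapped an H3K9ac peak after plasma of 22-month rats.

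The acetylation lay on the regions themselves. The summit of the overlapping H3K9ac peak fell inside the region in 82.1% of ipsilateral and 79.5% of contralateral cases at 21 months, and in 73.6% of ipsilateral and 78.0% of contralateral cases at 13 months. Among regions within 1 kb of a region in all 4 lists, the H3K9ac peak also reached that neighbour in 13.1% of ipsilateral and 33.2% of contralateral cases at 21 months, and in 27.7% of ipsilateral and 20.2% of contralateral cases at 13 months. H3K9ac at 21 months was called less often in the regions within 1 kb on the ipsilateral side, 37.3% against 54.0% of the others, while on the contralateral side the shares were 58.9% and 59.6%. The median fold of the overlapping H3K9ac peak was 3.28 ipsilateral and 3.34 contralateral at 21 months, against 4.43 ipsilateral and 3.72 contralateral at 13 months.

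Other presence patterns had H3K9ac shares at 21 months on at least 1 side both above and below the 70.8% of the set. The share was 98.1% of regions in all 4 lists, 82.7% of regions with both 21-month peaks and the ipsilateral 13-month peak, and 80.8% of those with the contralateral 13-month peak. It was 53.0% of regions with H3K4me3 on the ipsilateral side at both ages only, and 55.0% of those with it on the contralateral side at both ages only. It was 6.54% of the 214 regions called at 13 months on both sides only, where at most 5.61% had H3K9ac in either 13-month list. Acetylation was thus not particular to the set, and among these patterns its share was higher where H3K4me3 was called in more lists and at 21 months.

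**Figure D4:**
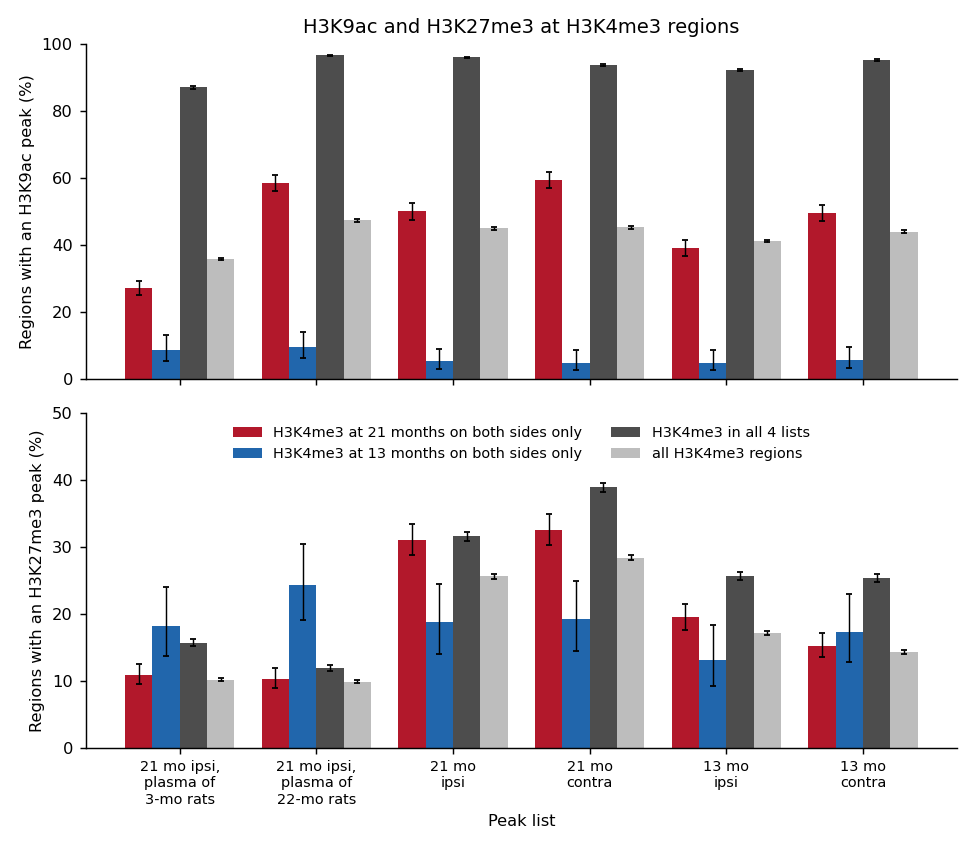
Share of regions (%) that overlap an H3K9ac peak (upper panel) or H3K27me3 peak (lower panel) in each list, for regions with H3K4me3 at 21 months on both sides only, at 13 months on both sides only and in all 4 lists, and for all H3K4me3 regions, with 95% Wilson intervals as bars. H3K9ac overlapped 27.04% to 59.4% of the 1590 regions and H3K27me3 10.3% to 32.5%, depending on the list.

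H3K27me3 was called in a minority of the regions. At 21 months it overlapped 614 on at least 1 side (38.6%, interval 36.3 to 41.0), against 33.7% of all H3K4me3 regions, and at 13 months it overlapped 358 (22.5%, interval 20.5 to 24.6), against 20.0%. By list, the counts were 494 regions (31.1%) in ipsilateral and 517 (32.5%) in contralateral brain at 21 months, against 25.6% and 28.3% of all regions. At 13 months the counts were 309 (19.4%) in ipsilateral and 242 (15.2%) in contralateral brain, against 17.2% and 14.2%. Each share was above that over all regions, which fell within the counting interval in the contralateral 13-month list alone (13.5 to 17.1). Regions in all 4 lists had higher shares than the set in every list. They had 31.6% ipsilateral and 38.9% contralateral at 21 months, against 25.7% ipsilateral and 25.3% contralateral at 13 months.

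The H3K27me3 lists differed widely in size. They held 300668 ipsilateral and 367061 contralateral peaks at 21 months, against 117866 ipsilateral and 51805 contralateral peaks at 13 months. With each list cut to its 37241 peaks of lowest q-value, H3K27me3 overlapped 17.6% of the regions at 21 months and 17.0% at 13 months on at least 1 side, so at equal peak numbers the shares of the ages lay within each other's counting intervals.

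All 4 untreated H3K27me3 lists held a peak in 180 of the 1590 regions (11.3%), against 10.9% of all regions, and none did in 940 (59.1%), against 63.7%. The 180 had a median length of 507.5 bp and a median lower H3K4me3 fold of 2.56, so they were longer and weaker than the set as a whole, whose medians were 394 bp and 2.83. H3K27me3 at 21 months on both sides and at 13 months on neither was held by 114 regions (7.17%), against 5.22%. Both 21-month lists held H3K27me3, with or without 13-month peaks, in 397 (25.0%), against 20.3%. H3K27me3 at 13 months with none at 21 months was rare, in 36 regions (2.26%), against 2.61%, of which 4 had it on both sides (0.252%), against 0.220%.

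Of those 114, the strongest in H3K4me3 lay on chromosome 15, 87610066 to 87610565, with H3K4me3 folds of 4.64 ipsilateral and 5.96 contralateral and H3K27me3 folds of 2.78 ipsilateral and 2.12 contralateral. On chromosome 16, the region 2546190 to 2546801 had H3K27me3 folds of 3.61 ipsilateral and 2.87 contralateral at 21 months, and H3K9ac in all 4 untreated lists with folds of 2.69 to 4.38. Regions on chromosome 2, 43745230 to 43745773, and chromosome 1, 280594719 to 280595156, also had H3K9ac in all 4 untreated lists beside H3K27me3 at 21 months only. In contrast, a 1013-bp region on chromosome 3, 177282326 to 177283338, had H3K27me3 folds of 2.78 ipsilateral and 4.38 contralateral, no H3K9ac in any list, and a gap of 168 bp to a region in all 4 lists.

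Combined over both sides at 21 months, H3K9ac without H3K27me3 was the most common state, in 718 of the 1590 regions (45.2%), against 31.0% of all regions. Both marks were called in 408 (25.7%), against 19.5%, H3K27me3 alone in 206 (13.0%), against 14.2%, and neither in 258 (16.2%), against 35.3%. The 408 regions with both marks were the longest, with a median of 466.5 bp, and the 258 with neither were the shortest, with 322 bp. Regions with neither mark lay within 1 kb of a region in all 4 lists in 32.9% of cases, compared with 14.5% of the regions with both marks. The lower H3K4me3 fold did not follow this order, with medians of 2.66 for both marks and 2.97 for neither.

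At 13 months the same regions held H3K9ac alone in 738 cases (46.4%), against 35.4% of all regions, and both marks in 182 (11.4%), against 11.9%. H3K27me3 alone was held by 176 (11.1%), against 8.06%, and neither by 494 (31.1%), against 44.6%. In bulk tissue, overlapping peaks of both marks do not show that a single cell or allele carried both.

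The second marks varied with length within the set. H3K9ac at 21 months on at least 1 side was called in 62.5% of the 427 regions of 300 bp or less, 70.7% of the 686 of up to 500 bp and 78.4% of the 477 that were longer. Over the regions not in all 4 lists the shares in the same classes were 16.4%, 52.3% and 77.1%. With both 21-month peaks and the ipsilateral 13-month peak they were 69.8%, 79.2% and 87.0%, and with the contralateral one 65.6%, 78.5% and 86.4%. The set lay below both of these patterns in every class. Lengths within a class were not matched: in the shortest class the median was 248 bp in the set and 179 bp over the regions not in all 4 lists, and in the longest 620 and 645 bp. H3K27me3 at 21 months was called in 27.2%, 38.3% and 49.3% of the set in the same order of length, against 25.8%, 42.0% and 52.1% of the regions not in all 4 lists.

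Both second marks were less frequent in the 122 regions whose lower H3K4me3 fold passed 4, where H3K9ac at 21 months overlapped 59.8% and H3K27me3 21.3%. In the 473 regions with a lower fold of at most 2.5 the shares were 71.2% and 49.9%. Median lengths were 345.5 bp in the 122 and 407 bp in the 473. In regions with both 21-month peaks and the ipsilateral 13-month peak, H3K9ac overlapped 85.4% above 4 and 81.5% up to 2.5. With the contralateral 13-month peak it overlapped 82.8% and 78.3%. H3K27me3 was less frequent above 4 there too, at 34.1% against 60.6% and 30.5% against 53.1%. By gap within the set, H3K9ac at 21 months overlapped 66.1% of the 389 regions within 1 kb of a region in all 4 lists. It overlapped 78.5% of the 674 up to 50 kb away and 65.3% of the 519 beyond. Over the regions not in all 4 lists the shares were 62.6%, 46.7% and 10.6% in the same order. With both 21-month peaks and the ipsilateral 13-month peak they were 80.2%, 84.2% and 81.7%, and with the contralateral one 74.4%, 84.2% and 80.7%. The set lay below both of these patterns in every class of gap. Against the regions not in all 4 lists it lay close within 1 kb and above farther away, but lengths were not matched. In the middle class the median length was 392.5 bp in the set and 231 bp over the regions not in all 4 lists. Beyond 50 kb the medians were 394 and 185 bp. These classes were chosen after the values were seen.

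**Figure D5:**
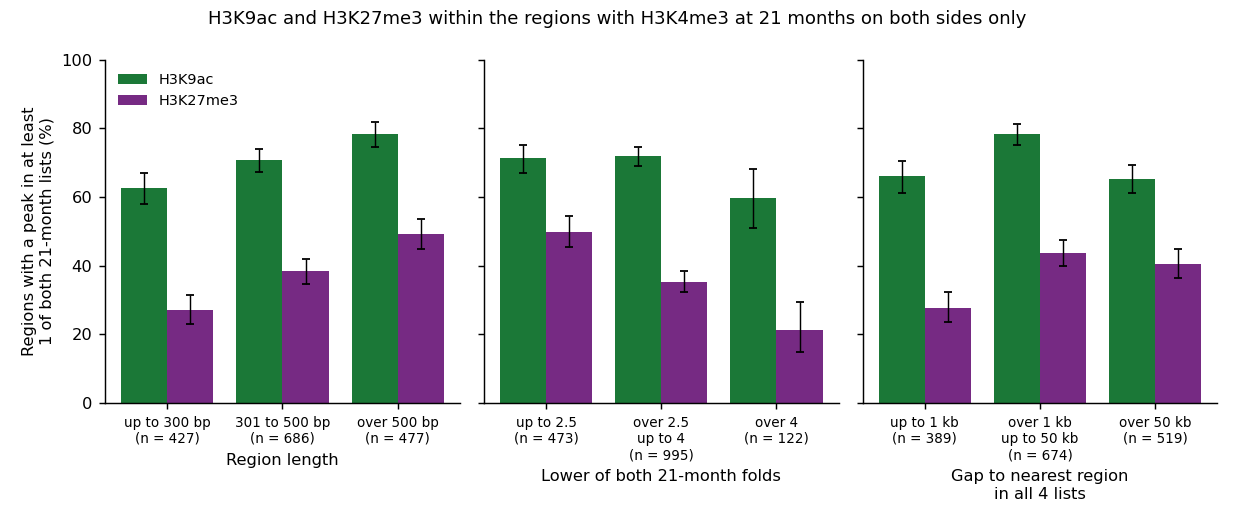
Share of the 1590 regions (%) that overlap H3K9ac (green) or H3K27me3 (purple) in at least 1 of both 21-month lists, by class of length, of the lower 21-month H3K4me3 fold and of the gap to the nearest region in all 4 lists, with 95% Wilson intervals as bars. H3K9ac lies between 59.8% and 78.5% in every class, and H3K27me3 between 21.3% and 49.9%.

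After plasma, H3K9ac in ipsilateral brain of 21-month rats overlapped 430 of the 1590 regions with plasma of 3-month rats (27.04%) and 928 with plasma of 22-month rats (58.4%), against 794 (49.9%) without plasma. Over all H3K4me3 regions the shares were 35.7%, 47.3% and 44.8% in the same order. The plasma lists held 50651 H3K9ac peaks for plasma of 3-month rats and 123863 for plasma of 22-month rats. At equal peak numbers the shares of the set were 27.04% and 41.2% with plasma, against 33.8% without. H3K27me3 overlapped 173 regions with plasma of 3-month rats (10.9%) and 164 with plasma of 22-month rats (10.3%), against 494 (31.1%) without. Over all H3K4me3 regions the shares were 10.2%, 9.86% and 25.6% in the same order. The H3K27me3 lists held 37241 peaks with plasma of 3-month rats and 51178 with plasma of 22-month rats, against 300668 without. At equal peak numbers the shares of the set were 10.9% and 9.12% with plasma, against 15.3% without. All plasma lists share a folder in the file headers that no untreated list uses, and each holds 1 ChIP library against 2. Plasma, folder and number of libraries thus cannot be told apart.

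Unplaced scaffolds, pieces of the assembly with no chromosome assigned, held 9 of the 1590 regions (0.566%, interval 0.298 to 1.07), against 0.247% of all H3K4me3 regions. Of the regions in all 4 lists, 36 (0.190%) lay on such scaffolds, and of the 214 regions called at 13 months only, 0 did. For 8 of the 9, no region in all 4 lists lay on the same scaffold.

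The strongest of the 9 measured 305 bp, at bases 1168 to 1472 of its scaffold, with H3K4me3 folds of 17.7 ipsilateral and 7.18 contralateral, the highest ipsilateral fold of the set. H3K9ac was called there on the ipsilateral side alone, with a fold of 30.9 at 21 months against 11.8 at 13 months. H3K27me3 was called there in all 4 untreated lists, with folds of 4.49 ipsilateral and 6.67 contralateral at 21 months, against 3.92 ipsilateral and 10.3 contralateral at 13 months. The next in rank both lay on a single scaffold, with lower H3K4me3 folds of 4.27 and 4.16.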

How the data were processed

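Peak lists were deposited by the authors, 1 per mark and group. Per the file headers, the peak caller was MACS 2.1.1.20160309 with narrow calling, a q-value cutoff of 0.05, single-end handling of tags and no more than 1 tag per position. Cutadapt, Bowtie2 and HOMER are named in the submitters' processing notes without versions or roles. The sources used here do not name the genome build. The lists hold the pileup, a signal scaled within each list that was not used, the fold enrichment, a ratio to local background, and −log10 p-values (not used) and −log10 q-values, per the file headers.

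Peaks of the 4 H3K4me3 lists that overlapped by at least 1 bp were joined into regions in Python 3.11.15 with numpy 2.4.6 and pandas 2.3.3. A region overlapped another mark when it shared at least 1 bp with a peak. A gap counts the bases between 2 regions. For each region and list the highest fold was taken. Interval operations were checked on simulated data. Shares have 95% Wilson intervals. The set, the classes and the named regions were chosen with earlier results of these data known. Named were the 10 regions of highest lower fold, the 5 longest, the 5 strongest with each other mark at 21 months on both sides only, 3 on unplaced scaffolds, the 3 farthest and the 3 nearest to 13-month peaks, with 3 just outside. Not all of them are described singly. Alternatives were fold and q-value minima, equal peak numbers, joining within 1 kb and leaving out unplaced scaffolds.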

Additional observations from a re-analysis of the deposited data

Results flagged for a closer look

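The side with more H3K27me3 at the regions with H3K4me3 at 21 months on both sides only differed between the ages. The ipsilateral share minus the contralateral share was -1.45 percentage points at 21 months (31.1% ipsilateral and 32.5% contralateral) and 4.21 percentage points at 13 months (19.4% ipsilateral and 15.2% contralateral). The difference was not tested, since each group has 1 list. The number of H3K27me3 peaks moved in the same direction, with 300668 ipsilateral and 367061 contralateral peaks at 21 months, against 117866 ipsilateral and 51805 contralateral peaks at 13 months, and its part in the result was not tested. Over all H3K4me3 regions the order of the sides turned in the same way, with 25.6% ipsilateral and 28.3% contralateral at 21 months, against 17.2% ipsilateral and 14.2% contralateral at 13 months, so it is not a result about this set. The order also depended on the peaks counted. At equal peak numbers the ipsilateral and contralateral shares were 15.3% and 13.7% at 21 months, against 13.5% ipsilateral and 13.3% contralateral at 13 months. The ipsilateral share was then the higher at both ages. With H3K27me3 peaks of fold 4 or more the contralateral share was the higher at both ages, with 11.4% ipsilateral and 14.3% contralateral at 21 months, against 7.61% ipsilateral and 8.55% contralateral at 13 months.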

How the results depend on the processing

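The number of regions depended most on the H3K4me3 fold asked for. With fold 4 or more in all 4 lists it was 1041, with a median length of 673 bp, lower fold of 4.60 and gap of 32517 bp, 22.1% within 5 kb, H3K9ac in 89.5% at 21 and 82.7% at 13 months and H3K27me3 in 49.2% and 33.9%. With fold 4 or more at 21 months and any 13-month peak barring a region, it was 122, with 345.5 bp, 4.37 and 31289 bp, H3K9ac in 59.8% and 42.6%, H3K27me3 in 21.3% and 15.6%, and 4.10% on unplaced scaffolds. The setting that gave 1041 ignored 13-month peaks below fold 4, and only 122 regions remained when such peaks were counted. Most of the 1041 thus lay in regions with a weaker 13-month peak. They are not a stricter form of the set, and their shares do not describe it. A −log10 q-value of 3 or more left 1455 (413 bp, lower fold 3.03, H3K9ac 74.1% and 61.0%). Equal H3K4me3 peak numbers left 1596 (414 bp, 2.93, 74.3% and 61.6%). Joining peaks within 1 kb left 1171 (438 bp, gap 41482.5 bp, 11.2% within 5 kb, H3K27me3 44.2% at 21 months).

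At equal peak numbers of the other mark, H3K9ac overlapped 54.0% at 21 and 45.3% at 13 months, and H3K27me3 17.6% and 17.0%. Counting its peaks of fold 4 or more gave 28.3% and 33.7%, and 16.1% and 10.2%. Counting its peaks within 1 kb gave 79.6% and 70.0%, and 52.0% and 30.9%. The cause was not tested. Leaving out unplaced scaffolds left 1581 regions. Of 108 single-list shares, 36 stayed within their interval and 72 moved.

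No paired analysis was possible because the libraries of a group were pooled before calling, which also kept any library from being left out. Depth is known per list alone. A missing peak is a call below the threshold and does not show that the mark was absent.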

Other observations

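Regions with H3K4me3 at 21 months on both sides only lay on every chromosome except Y, where they were 0 of 12 H3K4me3 regions. Chromosomes 2 and 1 held the most, with 164 and 162. As a share of the H3K4me3 regions of a chromosome they ranged from 2.04% on chromosome 5 (75 regions, 95% Wilson interval 1.63 to 2.55) to 3.90% on chromosome 12 (48 regions, interval 2.95 to 5.13). They were mostly single, and 58 of the 1590 (3.65%) lay within 5 kb of another region of the set.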
